A study of Mus musculus with 6 samples.

Results

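Far distal peaks of accessible chromatin, whose summit lay more than 100 kb from every protein-coding transcript start site, numbered 4064 in Pax6-HIGH cells, 1586 in Pax6-ON cells and 1597 in Pax6-OFF cells. They were taken from chromosomes 1 to 19 without chromosome 6, and start sites were those of GENCODE M1 on mm9. The 7247 far distal peaks were part of 44494 peaks on these 18 chromosomes and of 51867 peaks in the whole series. Start sites of non-coding RNAs, pseudogenes and immunoglobulin gene segments did not count as coding, so a peak beside one of these could be far distal.

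The data are ATAC-seq peaks, in which Tn5 transposase cuts and tags open DNA in nuclei, from 3 established mouse lines that were used as a series of Pax6 activity. Pax6-HIGH is Beta-TC3 from an insulinoma, Pax6-ON is MV+ from cultured lens epithelia of a C57BL6 mouse, and Pax6-OFF is RAG from a BALB/c renal adenocarcinoma, each untreated and each represented by this line alone. Each line had 2 libraries from 50000 nuclei, which the authors pooled in 1 peak call, so no value below has a replicate error, and differences between lines are set against counting error over peaks only. Nuclei of Pax6-ON were made with 0.2% NP40 and those of the other lines with 0.1%, so line and detergent cannot be told apart. Behind these calls were 100254099 fragments in Pax6-HIGH cells, 130955836 in Pax6-ON cells and 102223606 in Pax6-OFF cells, and no peak had fewer than 25, 30 and 25 fragments at its summit.

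Of 12 islet genes checked at their own start sites, with chromosome 6 included for this check, 6 had a peak within 1 kb in Pax6-HIGH cells, Neurod1, Nkx2-2, Isl1 and Pax6 among them, but Ins1, Ins2, Iapp and Pdx1 had none. Pax6-ON cells had peaks at 3 of 11 lens genes, Pax6, Prox1 and Maf, and at no crystallin gene of the list, and Pax6-OFF cells had peaks at 4 of 11 kidney genes, Pax2, Cdh16, Emx2 and Krt18. Of the islet genes, 3 had a peak in Pax6-ON cells and 0 in Pax6-OFF cells. Of the lens genes, 3 had one in Pax6-HIGH cells and 2 in Pax6-OFF cells. Of the kidney genes, 1 had one in Pax6-ON cells and 0 in Pax6-HIGH cells. The share of all coding genes with such a peak was not taken, so whether these counts exceed it was not tested. The number of peaks within 1 kb of any coding start site, on the 18 chromosomes, differed by line. It ran from 3879 for Pax6-ON through 6693 for Pax6-OFF to 8701 for Pax6-HIGH.

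Enhancers are stretches of DNA where transcription factors bind and raise the activity of a promoter that can lie far away on the same chromosome. Long stretches without coding genes, called gene deserts, often lie beside genes for developmental regulators and hold enhancers that act on them over great distances. Other parts of deserts are made of interspersed repeats and duplicated segments, where a short read can match many places. The transcription factor complex AP-1, made of Jun and Fos family proteins, is known for opening distal sites in cultured and growing cells, while Neurod1, Foxa and Maf family factors are known regulators of islet beta cells.

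Some far distal sites stood out in these data, and their sequences are given on the plus strand of mm9. The first pair are the commonest repeated sequences under far distal peaks, cut from the strongest peak that held them, at chr9:80850834-80850904 in Pax6-HIGH cells and chr3:140435811-140435881 in Pax6-OFF cells. The capitals mark the 31 bases that most places of the group shared.
Repeat group 1: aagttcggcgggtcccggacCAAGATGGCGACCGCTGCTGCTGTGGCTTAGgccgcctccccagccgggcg
Repeat group 2: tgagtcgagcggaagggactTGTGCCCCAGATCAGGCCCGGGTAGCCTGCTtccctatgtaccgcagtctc

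The next sequences are the bases around the strongest summit, by fold enrichment, of the gene desert that held most far distal peaks in each line. In Pax6-HIGH this desert lies between Robo1 and Robo2 (chr16:74093683-74093783), and in both other lines between Gm7112 and Ighv1-73 in the immunoglobulin heavy chain locus, at chr12:116396738-116396838 for Pax6-ON and chr12:116384035-116384135 for Pax6-OFF. None of them holds a match to the motifs described below.
Robo desert: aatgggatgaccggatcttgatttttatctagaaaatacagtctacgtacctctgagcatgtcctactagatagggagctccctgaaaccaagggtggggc
Heavy chain, Pax6-ON: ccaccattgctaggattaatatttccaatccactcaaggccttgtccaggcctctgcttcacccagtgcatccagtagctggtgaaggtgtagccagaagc
Heavy chain, Pax6-OFF: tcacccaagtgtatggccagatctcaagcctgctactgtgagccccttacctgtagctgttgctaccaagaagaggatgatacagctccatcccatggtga

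The following sequences are the bases around the summits of far distal sites called in all 3 lines, chosen for the highest fold enrichment in the weakest line. The first pair was taken over all far distal sites, at chr3:5860595-5860695 and chr12:79451919-79452019, and the other pair, after the data were seen, among sites of single-copy sequence, in an intron of Camk1d at chr2:5300311-5300411 and between Jun and Fggy at chr4:94828089-94828189. Capitals mark a homeobox match.
chr3 site: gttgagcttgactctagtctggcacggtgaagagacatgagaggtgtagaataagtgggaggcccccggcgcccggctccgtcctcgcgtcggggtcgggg
chr12 site: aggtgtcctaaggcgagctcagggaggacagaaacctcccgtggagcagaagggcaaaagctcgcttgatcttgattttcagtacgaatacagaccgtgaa
Camk1d intron: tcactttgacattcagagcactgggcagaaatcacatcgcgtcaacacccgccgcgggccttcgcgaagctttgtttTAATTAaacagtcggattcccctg
Jun to Fggy: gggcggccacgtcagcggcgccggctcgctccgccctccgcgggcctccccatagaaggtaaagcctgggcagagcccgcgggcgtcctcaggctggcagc

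The last sequences are single-copy sites called in 1 line alone with the highest fold enrichment among those that held the motif shown in capitals, and the farthest single-copy site called in both Pax6-ON and Pax6-OFF cells, all chosen after the data were seen. The Pax6-HIGH site, between Pmp22 and Hs3st3b1 at chr11:63589004-63589104, has a TEAD match followed by a NEUROD E-box. In the Pax6-ON site between Nr2f1 and Arrdc3, at chr13:80696617-80696717, an AP-1 match runs into a Maf motif. The Pax6-OFF site, between Sulf2 and Prex1 at chr2:166126904-166127004, has an AP-1 match, and the shared site at chr14:82465129-82465229, between Olfm4 and Pcdh17, has a RUNX match.
Pax6-HIGH alone: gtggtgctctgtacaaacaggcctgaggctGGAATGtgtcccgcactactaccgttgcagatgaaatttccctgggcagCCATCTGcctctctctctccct
Pax6-ON alone: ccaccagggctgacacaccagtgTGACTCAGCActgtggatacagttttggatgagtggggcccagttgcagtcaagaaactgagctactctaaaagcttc
Pax6-OFF alone: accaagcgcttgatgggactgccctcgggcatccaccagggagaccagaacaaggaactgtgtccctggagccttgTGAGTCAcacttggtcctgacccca
Pax6-ON and Pax6-OFF: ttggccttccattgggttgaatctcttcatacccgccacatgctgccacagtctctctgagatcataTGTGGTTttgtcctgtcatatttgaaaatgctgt

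Far distal peaks made up 17.7% of peaks in Pax6-HIGH cells (95% Wilson interval 17.2 to 18.2), 18.1% in Pax6-ON (17.3 to 18.9) and 12.6% in Pax6-OFF (11.99 to 13.1). The shares of Pax6-HIGH and Pax6-ON overlapped in their intervals, and that of Pax6-OFF lay below both. When each line was held to its 8768 peaks of lowest q-value, the number that Pax6-ON has, the share was 11.6% in Pax6-HIGH cells and 9.31% in Pax6-OFF cells, both below the 18.1% of Pax6-ON. The far distal share of Pax6-HIGH thus depended on how many of its peaks were counted.

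Called bases more than 100 kb from a coding start site covered 843 of 2247 Mb, or 37.5% of these chromosomes. Far distal peaks were sparse in it, at 4.82 per Mb in Pax6-HIGH cells, 1.88 in Pax6-ON cells and 1.89 in Pax6-OFF cells. The rest of the same chromosomes held 13.5, 5.11 and 7.92 peaks per Mb, which is 2.80, 2.72 and 4.18 times as many. Pax6-ON and Pax6-OFF had nearly the same number of far distal peaks, while Pax6-OFF had more peaks elsewhere. Chromosome 12 held 410 of the 1597 far distal peaks of Pax6-OFF, 127 of the 1586 of Pax6-ON and 243 of the 4064 of Pax6-HIGH. The near equality of Pax6-OFF and Pax6-ON thus rested on this chromosome.

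The density of far distal peaks kept falling with distance in each line. In Pax6-HIGH cells it went from 6.65 peaks per Mb at 100 to 200 kb to 4.55 at 200 to 500 kb, 2.81 at 500 to 1000 kb and 2.32 beyond 1000 kb. Pax6-ON cells had 2.43, 1.80, 1.37 and 0.887 peaks per Mb in these bins, and Pax6-OFF cells had 2.54, 1.74, 1.36 and 0.870. The curves of Pax6-ON and Pax6-OFF lay almost on each other as long as every peak was counted. Among peaks of single-copy sequence, defined below, the farthest bin held 1.48, 0.580 and 0.188 peaks per Mb in Pax6-HIGH, Pax6-ON and Pax6-OFF cells. These were 87, 34 and 11 peaks, and the curve of Pax6-OFF then lay below that of Pax6-ON in all 4 bins.

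**Figure D1:**
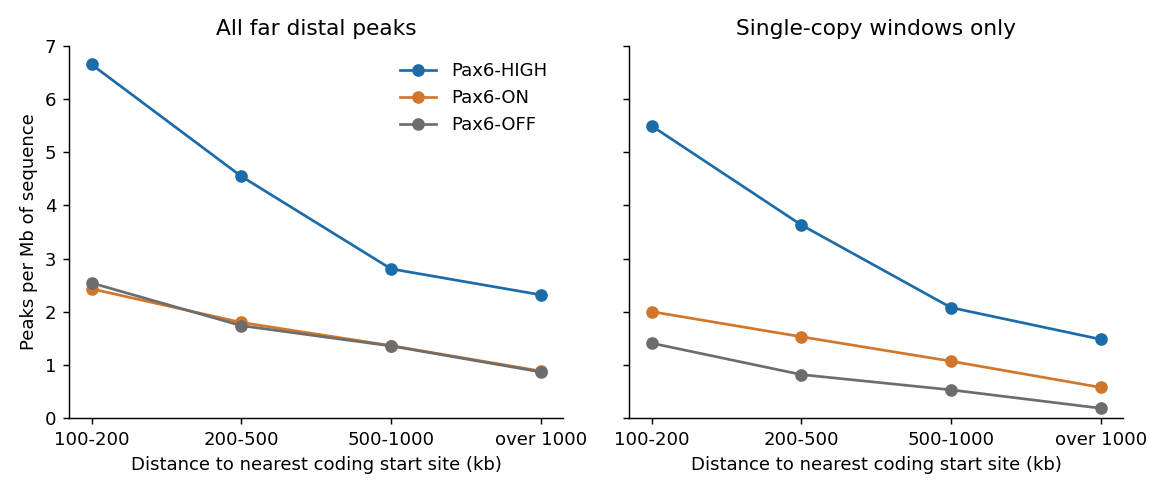
Far distal peaks per Mb of called sequence (vertical axis) by distance to the nearest coding start site (horizontal axis) in the 3 lines, for all peaks and for single-copy peaks. Density falls from bin to bin in each line, from 6.65 to 2.32 peaks per Mb in Pax6-HIGH, and Pax6-OFF loses the largest share of its density when multi-copy peaks are left out, from 2.54 to 1.41 at 100 to 200 kb.

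The median distance of a far distal peak from a coding start site was 204 kb in Pax6-HIGH cells, 216 kb in Pax6-ON cells and 209 kb in Pax6-OFF cells. More than 500 kb away were 568, 262 and 260 peaks, which is 14.0%, 16.5% and 16.3% of the far distal peaks. The farthest peak of Pax6-HIGH lay 2483 kb from a coding start site, at chr1:104152661-104152953 between Cntnap5b and Cdh20, with a pileup of 29 fragments and a window with a median of 277 copies in the genome. The farthest of Pax6-OFF lay in the same stretch, 2442 kb away, with a pileup of 32 fragments in single-copy sequence. In Pax6-ON cells the farthest peak lay 2199.9 kb away between Olfm4, which codes for a secreted glycoprotein, and Pcdh17, a cell adhesion gene, with a pileup of 66 fragments. At the limit of 100 kb median pileup changed little. The 315, 109 and 108 peaks from 100 to 110 kb had medians of 48, 58 and 43.5 fragments. The 374, 120 and 130 peaks from 90 to 100 kb had 46, 58 and 43.5. The share in multi-copy sequence, defined below, was higher beyond the limit, at 18.1%, 23.9% and 38.9% against 12.8%, 19.2% and 33.1%. Median length in Pax6-OFF was 429 bp beyond the limit and 351 bp before it.

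Signal at far distal peaks was close to that of distal peaks, those 10 to 100 kb from a coding start site, and below that of promoter peaks within 1 kb. Median pileup, the number of fragments at the summit without scaling for depth, was 46 in Pax6-HIGH far distal peaks (order-statistic interval 45 to 47), 48 in its distal and 76 in its promoter peaks. In Pax6-OFF cells these medians were 44, 45 and 56 fragments, with an interval of 43 to 45 for the far distal peaks. In Pax6-ON cells they were 61, 58 and 64 fragments, so far distal peaks lay above distal ones (intervals 60 to 62 and 57 to 59). The same order held in fold enrichment over the local background, with medians of 3.95 in far distal, 3.56 in distal and 4.22 in promoter peaks of Pax6-ON. Among single-copy peaks the median fold enrichment of Pax6-ON was higher in far distal than in distal peaks on 14 of 18 chromosomes and lower on 3. In Pax6-HIGH cells the median fold enrichment was 3.44 in far distal and 3.60 in distal peaks, and in Pax6-OFF cells 3.21 and 3.37. Among single-copy peaks alone, Pax6-OFF had a median of 3.54 in both classes, with far distal above distal on 14 of 18 chromosomes and below on 4, and Pax6-HIGH had 3.65 and 3.75, above on 7 and below on 9.

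Far distal peaks were about as long as distal peaks. Their median length was 481 bp in Pax6-HIGH cells, 364.5 bp in Pax6-ON cells and 385 bp in Pax6-OFF cells, beside 479.5, 367 and 388 bp in distal peaks. Promoter peaks had medians of 716, 455 and 552 bp. Lengths of 1000 bp or more were reached by 346, 71 and 160 far distal peaks. Of these, 198, 57 and 148 lay in multi-copy sequence.

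Most far distal peaks lay between genes. No annotated gene of any kind covered the summit of 72.6% of far distal peaks in Pax6-HIGH cells, 77.9% in Pax6-ON cells and 80.2% in Pax6-OFF cells. Introns of coding genes held 972, 300 and 228 summits, coding exons 17, 0 and 0. In Pax6-HIGH cells the introns with most far distal peaks were those of Fam155a and Celf4, an RNA-binding protein gene of neurons, with 10 each, followed by 9 each in Astn2, Negr1, Ptprd and Wwox. Macrod2 and Wwox led in Pax6-ON cells with 5 each, and Ptprn2, an autoantigen of secretory granules, in Pax6-OFF cells with 6. Within 1 kb of a start site of a non-coding transcript lay 106, 67 and 105 far distal peaks.

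Far from genes, a large part of the peaks lay in sequence that the genome holds more than once. By a split added after the data were seen, a window was called multi-copy when the median number of genome copies of the 31-mers in the 200 bases around its summit was at least 2. This held for 809 far distal peaks of Pax6-HIGH, 280 of Pax6-ON and 810 of Pax6-OFF cells, or 19.9% (18.7 to 21.2), 17.7% (15.9 to 19.6) and 50.7% (48.3 to 53.2). Over all peaks of these chromosomes the shares were 10.3%, 14.7% and 19.6%. Among promoter peaks they were 1.87%, 2.91% and 2.26%, and among distal peaks 14.5%, 26.1% and 37.6%. Far distal peaks of Pax6-HIGH and Pax6-OFF therefore exceeded their distal peaks in this share, on 14 and 16 of 18 chromosomes, while those of Pax6-ON lay below theirs, on 11 of 18. Windows with a median of 10 or more copies made up 15.4%, 11.3% and 32.0% of far distal peaks. A step that removes reads with several matches is not given in the sources used here, and the part of such reads in these peaks was not tested.

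**Figure D2:**
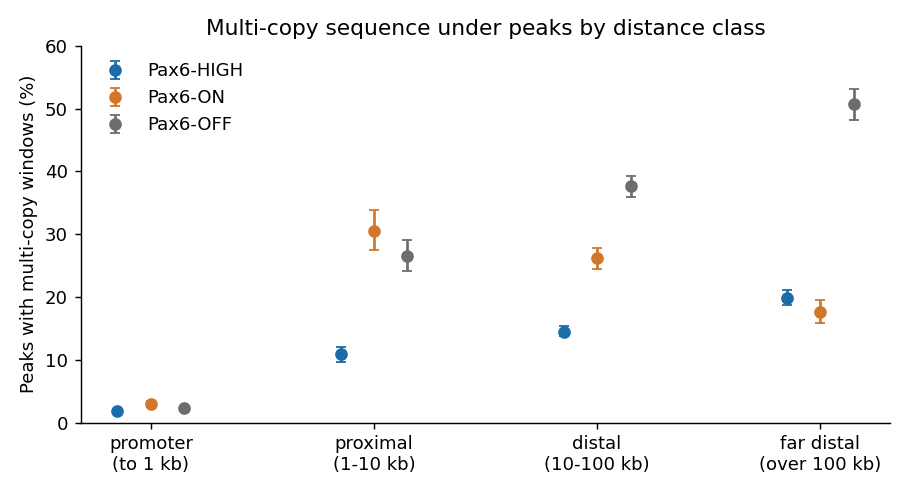
Share of peaks in multi-copy windows (vertical axis, percent, with 95% Wilson intervals) for promoter, proximal (1 to 10 kb), distal and far distal peaks (horizontal axis) of each line. In Pax6-OFF the share reaches 50.7% in far distal peaks, while in Pax6-ON it is 17.7% there and lower than in distal peaks.

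Multi-copy far distal peaks were longer than single-copy ones in each line, and weaker by fold enrichment. The median fold enrichment was 2.97 against 3.65 in Pax6-HIGH, 3.10 against 4.15 in Pax6-ON and 3.04 (2.98 to 3.12) against 3.54 (3.37 to 3.63) in Pax6-OFF. Their median pileup was 39 against 48 fragments in Pax6-HIGH (intervals 38 to 40 and 47 to 49) and 49 against 62 in Pax6-ON (47 to 52 and 61 to 64). In Pax6-OFF cells it was 43 against 46, with intervals of 41 to 45 and 44 to 47 that overlapped. Their median length was 556 against 468 bp, 490.5 against 354.5 bp and 461 against 334 bp. AP-1 matches were rare in them, in 2.72%, 7.86% and 4.81% of windows.

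A pair of sequence groups led the multi-copy peaks. Far distal windows were put in 1 group when they shared a 31-mer, directly or through other windows. The largest group held 368 peaks at 238 places and the next 328 peaks at 204 places, each on all 18 chromosomes. Their windows had a median of 1951 and 2449.8 genome copies, 64.7% and 63.0% G or C, and 18 CpG in 300 bases, where windows tiled over the far distal genome had medians of 39.3% and 1. The largest held 202 peaks of Pax6-HIGH, 35 of Pax6-ON and 131 of Pax6-OFF, and the next 158, 54 and 116. Both groups together made up 8.86%, 5.61% and 15.5% of far distal peaks. The 31 bases in capitals in repeat group 1 above lay in 234 of the 344 peaks of the group outside chromosome 18, and those of group 2 in 206 of 316. The copy of group 1 shown there had a pileup of 141 fragments and an 11.1-fold enrichment in Pax6-HIGH, between Impg1, a gene of the retinal matrix, and the serotonin receptor gene Htr1b.

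The tallest far distal pileups came from a handful of places. The highest in Pax6-HIGH and Pax6-ON lay at chr12:98299644-98299991 between 1700019M22Rik and Galc, with 61036 fragments in Pax6-HIGH cells, 201526 in Pax6-ON cells and 98586 in Pax6-OFF cells, or 0.0609%, 0.154% and 0.0964% of each call's fragments. All 170 of the 31-mers searched in its window also occur in the mitochondrial genome. A site at chr5:60434086-60434307 with 113 such 31-mers had 26619 fragments in Pax6-ON and 11389 in Pax6-OFF. In Pax6-OFF the highest pileup, 106590 fragments, lay at chr12:3109885-3110087 near the chromosome start in a window with a median of 40 copies. Mitochondrial 31-mers occurred in 2, 4 and 3 far distal peaks of Pax6-HIGH, Pax6-ON and Pax6-OFF cells. Without these peaks and those near assembly gaps, the far distal share, median pileup, median length and overlap with another line stayed within their intervals in each line. Among single-copy windows without such 31-mers and with a fold enrichment of at least 3, a limit set after the data were seen, the tallest peak of Pax6-HIGH had 328 fragments and lay in an intron of Eya1, a transcription cofactor of eye, ear and kidney development. In Pax6-ON the tallest had 356 fragments, in an intron of the magnesium channel gene Trpm6.

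Sharing between lines was counted as an overlap of at least 1 bp. Over all copy numbers, 353 far distal peaks of Pax6-HIGH overlapped a peak of Pax6-ON (8.69%, against 21.4% of all peaks of Pax6-HIGH) and 558 a peak of Pax6-OFF (13.7%, against 36.2%). Of the far distal peaks of Pax6-ON, 359 overlapped Pax6-HIGH (22.6%, against 56.5%) and 496 overlapped Pax6-OFF (31.3%, against 56.5%). In Pax6-OFF 561 overlapped Pax6-HIGH (35.1%, against 66.0%) and 495 overlapped Pax6-ON (495 of 1597, against 38.8% of all peaks). Each of these shares was below the share over all peaks of the line. Any other line was matched by 16.8%, 39.0% and 51.5% of the far distal peaks of Pax6-HIGH, Pax6-ON and Pax6-OFF cells, against 40.03%, 66.6% and 72.9% of all peaks.

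Copy number changed the pattern of sharing. Among multi-copy far distal peaks, 52.4% of those of Pax6-HIGH overlapped Pax6-OFF and 53.0% of those of Pax6-OFF overlapped Pax6-HIGH. Pax6-ON peaks of this kind overlapped Pax6-HIGH in 69.6% and Pax6-OFF in 75.7%. Among single-copy far distal peaks, the overlap of Pax6-HIGH and Pax6-OFF was 134 peaks or 4.12% of those of Pax6-HIGH (3.49 to 4.86), and 132 peaks or 16.8% of those of Pax6-OFF (14.3 to 19.5). Pax6-HIGH and Pax6-ON overlapped in 163 peaks or 5.01% of those of Pax6-HIGH (4.31 to 5.81), and 164 peaks or 12.6% of those of Pax6-ON (10.9 to 14.5). Pax6-ON and Pax6-OFF overlapped in 284 peaks or 21.7% of those of Pax6-ON (19.6 to 24.1), and 278 peaks or 35.3% of those of Pax6-OFF (32.1 to 38.7).

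Set against single-copy distal peaks, these shares were lower for far distal peaks in 5 of the 6 directions. Distal peaks of Pax6-HIGH overlapped Pax6-ON in 6.84% and Pax6-OFF in 9.96%. The former was higher than in far distal peaks on 12 of 18 chromosomes and lower on 6, and the latter was higher on each of 18. Distal peaks of Pax6-ON overlapped Pax6-HIGH in 24.3% and Pax6-OFF in 32.3%, both higher than far distal on 17 of 18 chromosomes, and those of Pax6-OFF overlapped Pax6-HIGH in 32.4%, higher on 18 of 18. The exception was the overlap of Pax6-OFF peaks with Pax6-ON, which was 35.3% in far distal and 29.7% in distal peaks (27.7 to 31.7) and was higher far from genes on 17 of 18 chromosomes. Without the stretches of the immunoglobulin heavy chain genes described below it was 35.9% (32.4 to 39.6).

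**Figure D3:**
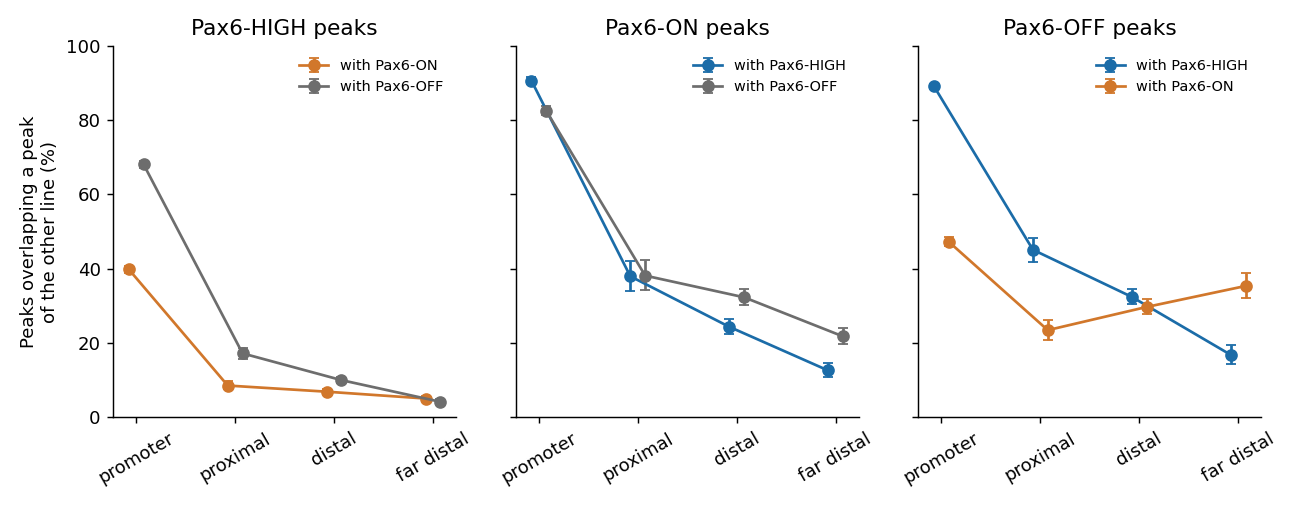
Share of single-copy peaks of each line (1 panel a line) that overlap a peak of another line (vertical axis, percent, with 95% Wilson intervals) in promoter, proximal, distal and far distal peaks. From distal to far distal peaks sharing falls in 5 of the 6 directions, and in the other it rises from 29.7% to 35.3%, for Pax6-OFF peaks that overlap a Pax6-ON peak.

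Most single-copy far distal peaks were called in 1 line alone, 3019 of 3255 in Pax6-HIGH cells, 919 of 1306 in Pax6-ON cells and 437 of 787 in Pax6-OFF cells. Over all single-copy peaks, 37.6%, 66.7% and 75.9% overlapped another line, against 7.25%, 29.6% and 44.5% of the far distal ones. Private peaks had a lower median pileup, 47, 61 and 41 fragments, than peaks matched by both other lines, with 72, 80 and 57. Their median fold enrichment was 3.60, 4.09 and 3.14, against 4.60, 4.22 and 4.62. The difference was thus small in Pax6-ON by fold enrichment. Pax6-ON peaks shared with Pax6-HIGH only had medians of 62 fragments and 4.15, and those shared with Pax6-OFF only 67 and 4.22. In single-copy sequence 61, 61 and 60 far distal peaks were matched by both other lines, 1.87%, 4.67% and 7.62% of the single-copy peaks. Over all copy numbers there were 229, 236 and 234 such peaks.

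The shared sites whose sequences are given above had different heights in the lines. The chr3 site, between Pxmp3 and 1700008P02Rik, had pileups of 311 fragments in Pax6-HIGH cells, 390 in Pax6-ON cells and 1515 in Pax6-OFF cells, and its window had a median of 2 copies. The chr12 site, between Gphn, which codes for the receptor scaffold gephyrin, and Fam71d, had 131, 164 and 767 fragments. The Camk1d intron site, single-copy, had 141, 168 and 608 fragments with fold enrichments of 7.86, 11.1 and 22.9. The site between Jun and Fggy had 286, 143 and 102 fragments, with fold enrichments of 7.70, 7.63 and 8.54, and lay within the annotated gene BC042782, which is not a coding gene in GENCODE M1. The first 3 of these sites were highest in Pax6-OFF and the Jun site was highest in Pax6-HIGH by pileup, with no scaling for depth.

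Sequence under the far distal peaks differed between lines. Both strands of the 300 bases around each summit were searched for 10 short motifs, and the share of windows with a match is given beside that in 281810 windows of the same length tiled over the far distal genome. Peak windows were richer in G and C than the tiled windows, with medians of 46.3%, 45.0% and 48.3% in single-copy far distal peaks against 39.3%. Only single-copy peaks are described. A match is a run of letters and was not tested as a binding site.

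AP-1 matches (TGANTCA) were found in 67.2% of far distal windows of Pax6-ON (64.6 to 69.7), 47.9% of Pax6-OFF (44.4 to 51.4) and 21.3% of Pax6-HIGH cells (19.9 to 22.7), against 9.08% of tiled windows. The 3 intervals did not overlap. In distal peaks the shares were 57.5%, 40.4% and 20.5%, and in promoter peaks 5.10%, 4.14% and 4.12%. The share was higher in far distal than in distal peaks on 15 of 18 chromosomes in Pax6-ON and 16 in Pax6-OFF, and on 10 in Pax6-HIGH cells. AP-1 matches were commoner in stronger peaks. By quartile of fold enrichment the share rose from 57.5% in the lowest to 74.3% in the highest in Pax6-ON and from 15.1% to 25.2% in Pax6-HIGH cells. In Pax6-OFF it was 20.8% in the lowest, 48.2% in the second, 63.8% in the third and 58.9% in the highest. The quartiles include the immunoglobulin heavy chain peaks described below. Those of the gap from Gm7112 to Ighv1-73 had a median fold enrichment of 2.58 in Pax6-OFF, and 6.88% had an AP-1 match.

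TEAD (CATTCC) and RUNX (TGTGGTT) matches followed the same order of lines. TEAD matches, the sites of factors that act with the Hippo pathway effector YAP, were in 32.9% of far distal windows of Pax6-ON, 29.0% of Pax6-OFF and 15.9% of Pax6-HIGH cells, against 16.3% of tiled windows. RUNX matches were in 15.9%, 13.5% and 5.87%, against 6.46%. Pax6-HIGH thus lay at the tiled level for both motifs.

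Maf, NEUROD E-box and FOX matches were commonest in Pax6-HIGH far distal peaks. The Maf motif (TGCTGA) was in 40.8% of Pax6-HIGH (39.1 to 42.5), 28.3% of Pax6-ON (25.9 to 30.8) and 23.3% of Pax6-OFF windows (20.4 to 26.3), against 19.4% of tiled windows. AP-1 and Maf motifs can share bases, as in the Pax6-ON sequence above, so the Maf share was also taken over windows without an AP-1 match, where it was 39.0%, 26.2% and 19.5%, against 19.2% in tiled windows. The NEUROD E-box (CAGATGG), which Neurod1 and related factors bind, was in 15.7%, 6.28% and 7.24%, against 5.04%. FOX matches (TGTTTAC) were in 11.2%, 5.59% and 4.32%, against 4.82%. Pax6-HIGH exceeded the tiled level 2.103 times for the Maf motif, 3.12 times for the E-box and 2.33 times for FOX. Its distal peaks were close to its far distal ones, with 14.9% for the E-box and 11.1% for FOX. The Maf motif was in 36.6% of its distal windows without an AP-1 match.

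CTCF core matches (CNAGNGGGC), part of the site of the factor that marks chromatin loop ends, were alike in the lines at 3.78% of Pax6-HIGH, 3.75% of Pax6-ON and 3.68% of Pax6-OFF far distal windows, against 1.35% of tiled and 13.4%, 15.4% and 14.6% of promoter windows. RFX matches (GTTGCCA) were in 4.95%, 3.68% and 4.19%, against 2.55%. Homeobox (TAATTA) and HNF1 (GTTAAT) matches, both rich in A and T, were no commoner than in tiled windows in any line, at 10.6%, 5.67% and 6.99% against 12.5% and at 13.0%, 9.49% and 12.3% against 13.5%.

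**Figure D4:**
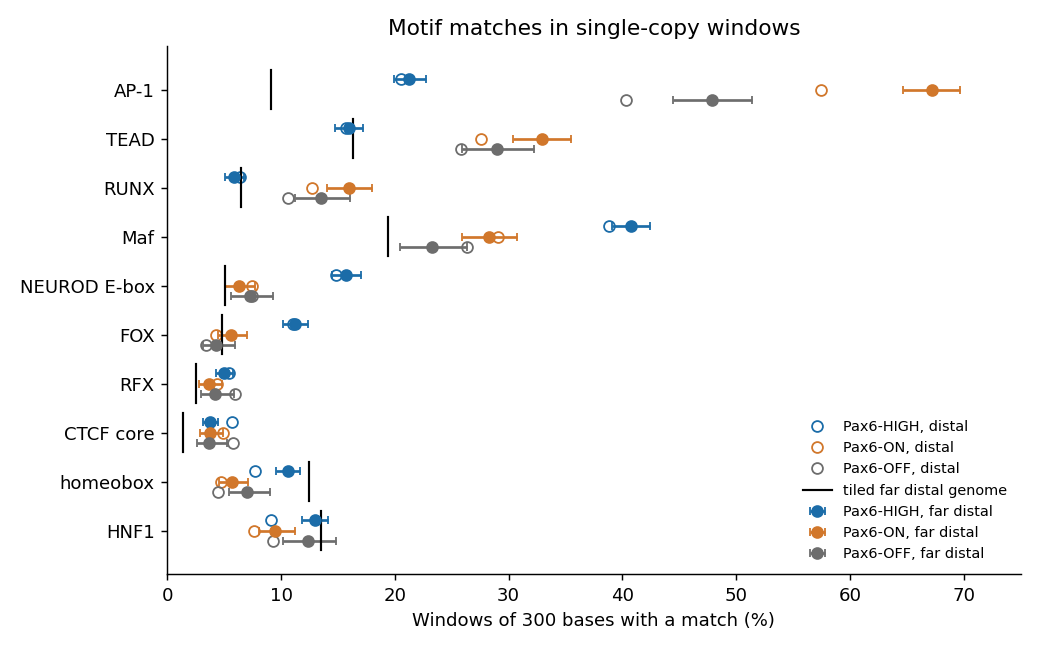
Share of 300-base windows with a motif match (horizontal axis, percent) for 10 motifs (vertical axis) in single-copy far distal peaks (filled, with 95% Wilson intervals) and distal peaks (open) of the 3 lines, with black lines for windows tiled over the far distal genome. AP-1, TEAD and RUNX are highest in Pax6-ON, and Maf, NEUROD E-box and FOX in Pax6-HIGH.

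Motifs also differed by the line a peak was shared with. Pax6-ON far distal peaks called in no other line had an AP-1 match in 69.3% (66.3 to 72.2) and those shared with Pax6-OFF only in 69.5% (63.2 to 75.2), while those shared with Pax6-HIGH only had one in 52.4% (42.9 to 61.8). CTCF core matches ran the other way, with 12 of 103 or 11.7% (6.79 to 19.3) of the Pax6-ON peaks shared with Pax6-HIGH only and 3 of 223 or 1.35% (0.459 to 3.88) of those shared with Pax6-OFF only. In Pax6-OFF, private far distal peaks had AP-1 matches in 38.7% (34.2 to 43.3) and those shared with Pax6-ON only in 68.3% (61.9 to 74.2). In Pax6-HIGH, the share was 19.9% in private peaks and 44.1% (34.9 to 53.8) in those shared with Pax6-ON only. The private peaks of Pax6-OFF include those of the immunoglobulin heavy chain locus described below. In its gap from Gm7112 to Ighv1-73, 98 of 160 Pax6-OFF peaks of any copy number were private, and 6.88% of the 160 had an AP-1 match. The AP-1 share of private peaks was not taken without this locus.

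Gene deserts were measured as gaps, stretches between neighbouring coding start sites more than 200 kb apart, of which there were 2251. A gap can hold far distal peaks only in the part that is more than 100 kb from both ends, and the median length of this part was 171 kb. At least 1 far distal peak lay in 1179 gaps in Pax6-HIGH cells, 793 in Pax6-ON cells and 699 in Pax6-OFF cells, and 399 gaps had one in each line. At least 3 peaks lay in 505, 171 and 128 gaps, which held 77.3%, 50.9% and 53.7% of the far distal peaks. With 10 or more peaks there were 77, 6 and 11 gaps. Counting single-copy peaks alone, 414, 132 and 62 gaps had 3 or more, and 12 gaps had this in all 3 lines.

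Gaps beside genes of transcription factors were somewhat denser in single-copy far distal peaks. Such genes, found by the symbols of transcription factor families, bounded 255 of the 2251 gaps (11.3%). These held 4.72 peaks per Mb in Pax6-HIGH cells, 1.87 in Pax6-ON cells and 1.34 in Pax6-OFF cells, and the other gaps 3.75, 1.51 and 0.881. Among gaps with 3 or more single-copy peaks, the share bounded by them was 16.2% (12.9 to 20.04), 15.2% (10.0 to 22.2) and 29.0% (19.2 to 41.3). These shares were not matched for gap length. The median far distal part of these gaps was 505, 932 and 609 kb, against 171 kb over all gaps. Among gaps with 5 or more single-copy peaks the share was 15.1%, 18.2% and 12.5%, the last being 2 of 16 gaps. The direction did not hold at each gap length, since in gaps with a far distal part under 200 kb the other gaps were denser in Pax6-ON and Pax6-OFF, at 2.48 and 2.07 peaks per Mb against 2.37 and 1.85.

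The gaps with most far distal peaks in Pax6-HIGH cells held between 22 and 28 of them. Between the Slit receptor genes Robo1 and Robo2 on chromosome 16 there were 28 peaks in Pax6-HIGH cells, 2 in Pax6-ON cells and 2 in Pax6-OFF cells. The pileups of the Pax6-HIGH peaks ran from 25 to 186 fragments with a median of 48.5, 25 of them were single-copy and 26 were private to the line. On the other side of Robo1, towards 4930423O20Rik, there were 22, 2 and 2 peaks. Between Camk1g and the semaphorin receptor gene Plxna2 there were 25 in Pax6-HIGH, all of them single-copy, 7 in Pax6-ON and none in Pax6-OFF. The gap between Gm1840 and the ephrin gene Efnb2 held 23, 6 and 0, and that between Ttll7 and the adhesion receptor gene Lphn2 22, 5 and 0.

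Further gaps among these 8 were bounded by Runx1t1, by Cited2 and by Snrpn, the last described below. Between Fam92a and Runx1t1, a corepressor gene, there were 25 peaks in Pax6-HIGH cells, 5 in Pax6-ON cells and 3 in Pax6-OFF cells. One of these sites, 735 kb from the nearest coding start site, had pileups of 323 fragments in Pax6-HIGH and 354 in Pax6-ON and was not called in Pax6-OFF. Between Nmbr and Cited2, whose product binds the coactivators CBP and p300, there were 23, 5 and 5 peaks.

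The gap with most far distal peaks in Pax6-ON and in Pax6-OFF lay in the immunoglobulin heavy chain locus on chromosome 12. Between Gm7112 and Ighv1-73 there were 61 peaks in Pax6-ON, 160 in Pax6-OFF and 20 in Pax6-HIGH cells. This stretch holds 55 immunoglobulin variable gene segments, which the annotation does not class as protein-coding genes, and 38 of the 160 peaks of Pax6-OFF lay within 1 kb of such a segment. Pileups ran from 27 to 174 fragments in Pax6-OFF, from 37 to 94 in Pax6-ON and from 28 to 63 in Pax6-HIGH. Of the Pax6-ON peaks 51 overlapped one of Pax6-OFF, and 94 of the Pax6-OFF peaks were single-copy. AP-1 matches were in 6.88% of the Pax6-OFF and 9.84% of the Pax6-ON windows, near the tiled level. The neighbouring gap from Adam6a to Gm7112, with 29 immunoglobulin segments, held 13 peaks in Pax6-ON, 13 in Pax6-OFF and 6 in Pax6-HIGH. Outside both gaps, the AP-1 share of single-copy far distal peaks of Pax6-OFF was 54.2% in place of 47.9%.

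In several other gaps of Pax6-OFF with many peaks, most of the peaks lay in multi-copy sequence. Between C230091D08Rik and Snrpn, in the imprinted region of chromosome 7, the annotation places 130 small nucleolar RNA genes, and there were 39 far distal peaks in Pax6-OFF, 25 in Pax6-HIGH and 21 in Pax6-ON cells, none of them single-copy. This gap also held most sites called in all 3 lines, 13. On chromosome 12, the gap from Gm9257 to Gm10479 held 55 peaks in Pax6-OFF, 3 in Pax6-HIGH and 1 in Pax6-ON, and that from Gm17680 to Gm17391 held 39, 3 and 2. The next gap along, from Gm17391 to Gm10330, held 15 in Pax6-OFF and none in the other lines. Of these 55, 39 and 15 peaks of Pax6-OFF, 8, 1 and 0 were single-copy. Between Gpm6a and Gm1153 there were 6, 7 and 8 peaks in Pax6-HIGH, Pax6-ON and Pax6-OFF, all multi-copy and each called in all 3 lines.

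**Figure D5:**
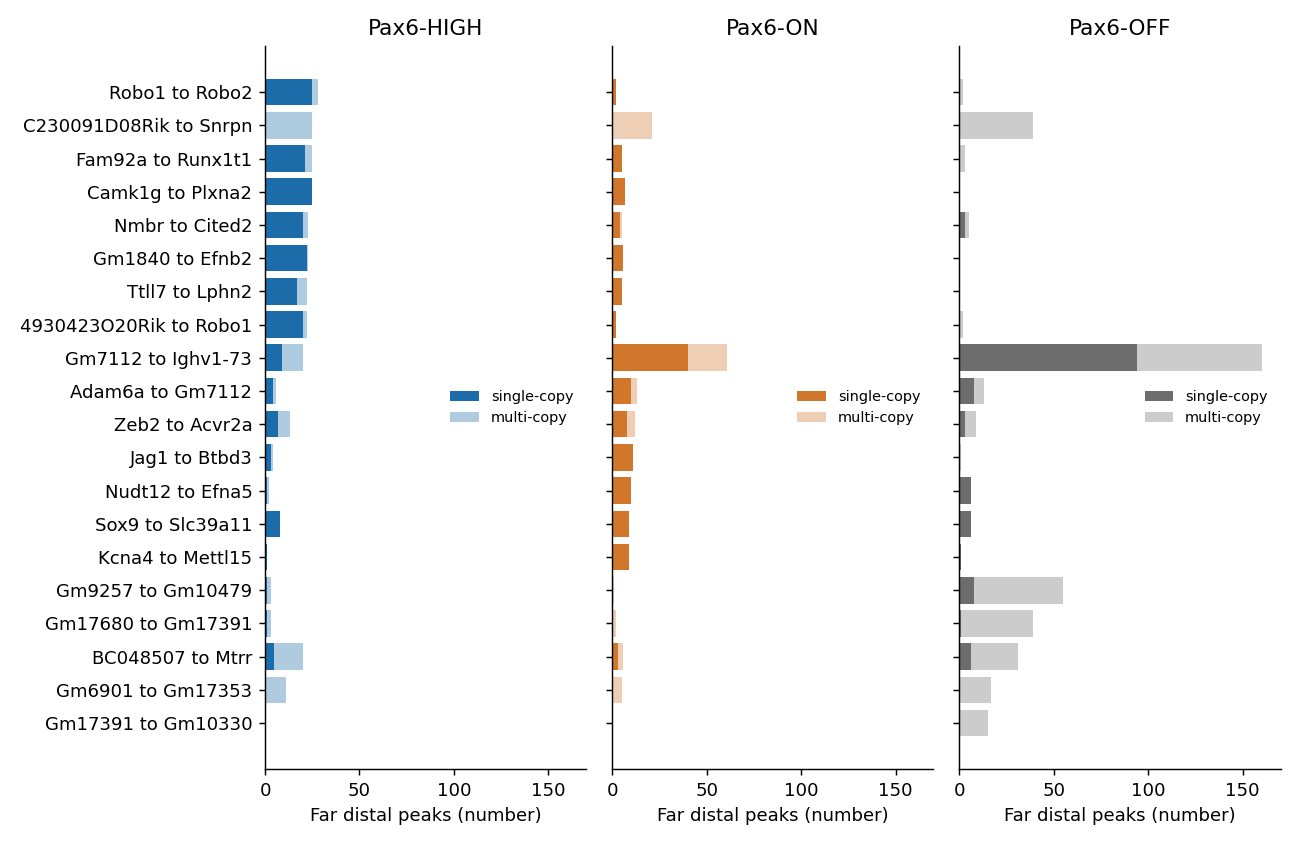
Number of far distal peaks (horizontal axis) in 20 gaps named by their bounding coding genes (vertical axis), the 8 with most peaks in each line, with 1 panel a line and single-copy peaks in full and multi-copy peaks in pale colour. Gaps such as Robo1 to Robo2 are mostly in full colour in Pax6-HIGH, there with 25 of 28 peaks. Those of Pax6-OFF are largely pale apart from the stretches on both sides of Gm7112.

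Some gaps held more single-copy peaks in Pax6-ON than in either other line. Between Jag1, a Notch ligand gene needed in lens development, and Btbd3 there were 11 peaks in Pax6-ON with pileups from 48 to 147 fragments, none of them called in another line, and 8 had an AP-1 match. The same gap held 4 peaks in Pax6-HIGH and 1 in Pax6-OFF, with pileups from 26 to 42 fragments. Between Nudt12 and the ephrin gene Efna5 there were 10 peaks in Pax6-ON, 6 in Pax6-OFF and 2 in Pax6-HIGH, and between the potassium channel gene Kcna4 and Mettl15 there were 9, 1 and 1. The gap between Zeb2, a repressor of epithelial genes, and the activin receptor gene Acvr2a had peaks in each line, 12, 9 and 13, of which 8, 3 and 7 were single-copy, and 5 of the 12 Pax6-ON windows had an AP-1 match.

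The gap downstream of Sox9, a transcription factor gene of cartilage and many epithelia, held far distal peaks in each line. Between Sox9 and Slc39a11 there were 8 peaks in Pax6-HIGH cells, 9 in Pax6-ON cells and 6 in Pax6-OFF cells, all single-copy. An AP-1 match was in 8 of 9 windows of Pax6-ON, 5 of 6 of Pax6-OFF and 0 of 8 of Pax6-HIGH. Of the Pax6-ON peaks 4 overlapped one of Pax6-OFF, the tallest at chr11:112862339-112862890, 217 kb from the nearest coding start site, with 153 fragments in Pax6-ON and 51 in Pax6-OFF. Pax6-HIGH shared a different peak with each other line. The one shared with Pax6-ON, at chr11:113062724-113063256, had 53 fragments in Pax6-HIGH and 109 in Pax6-ON and was the only Pax6-ON peak of the gap without an AP-1 match. It had a CTCF core match.

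The gap downstream of Myc, the growth regulator, ranked next to the immunoglobulin locus when single-copy peaks of Pax6-OFF were ranked. Between Myc and Gsdmc there were 10 peaks in Pax6-OFF, 5 in Pax6-ON and 15 in Pax6-HIGH cells, of which 10, 5 and 14 were single-copy. In Pax6-OFF their pileups ran from 34 to 114 fragments, and 7 lay within the non-coding RNA gene Pvt1. The tallest, at chr15:62400502-62401403 and 582 kb from the nearest coding start site, had 114 fragments in Pax6-OFF and overlapped a peak of 35 fragments in Pax6-ON and a peak of Pax6-HIGH.

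Gaps bounded by genes of each line's tissue were counted from lists of known regulators. Single-copy far distal peaks lay in 43.4% of all 2251 gaps in Pax6-HIGH cells, 31.1% in Pax6-ON cells and 19.3% in Pax6-OFF cells. Of 45 gaps bounded by genes of the beta cell list, 24 (53.3%) had one in Pax6-HIGH cells, 18 (40%) in Pax6-ON cells and 12 (26.7%) in Pax6-OFF cells. Of 26 gaps of the lens and eye list, 14, 8 and 6 had one (53.8%, 30.8% and 23.1%), and of 28 gaps of the kidney list 12, 11 and 7 (42.9%, 39.3% and 25%). The mesenchymal and AP-1 linked list, with 30 gaps, had one in 18, 19 and 14 (60%, 63.3% and 46.7%). By density this last list stood at 3.65, 3.02 and 2.17 peaks per Mb, against 3.86, 1.55 and 0.934 over all gaps. The lens list was not above all gaps in Pax6-ON, where it held 1.23 peaks per Mb.

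Gaps beside beta cell genes were held by Pax6-HIGH alone about as often as other gaps. Single-copy far distal peaks occurred in Pax6-HIGH alone in 9 of the 45 gaps of the beta cell list, or 20%, and in 434 of all 2251 gaps, or 19.3%. In Pax6-ON alone they occurred in 3 and in Pax6-OFF alone in 1 of the 45, against 7.82% and 2.93% of all gaps. Between Rcn1 and Pax6, the eye and islet factor that names the lines, there were 2 peaks in Pax6-HIGH and none in the other lines. They lay at chr2:105363503-105363824 and chr2:105392182-105392923, 124 and 117 kb from the nearest coding start site, with 47 and 68 fragments, and each had a Maf match. Between Isl1, a homeobox factor of islets and neurons, and Parp8 there were 7 peaks in Pax6-HIGH with pileups from 45 to 93 fragments, 2 in Pax6-ON with 65 and 86, and none in Pax6-OFF. Both Pax6-ON peaks had an AP-1 match and overlapped none of the other lines. Other gaps of the list went the other way, with 6 peaks in Pax6-ON and 3 in each other line between Nr5a2 and A130050O07Rik, and 3 peaks in Pax6-OFF alone between Irx2 and Irx4. Between Dgkb and Etv1 there were 6 peaks in Pax6-HIGH only, and between Tssc1 and the neuroendocrine factor gene Myt1l there were 10, 0 and 1. On both sides of the insulin gene Ins1 there was no far distal peak in Pax6-HIGH or Pax6-OFF, while Pax6-ON had 4 towards Sorcs1 and 2 towards Xpnpep1.

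The 26 gaps of the lens and eye list held 66 single-copy far distal peaks in Pax6-HIGH cells, 18 in Pax6-ON cells and 10 in Pax6-OFF cells. This was 4.53, 1.23 and 0.686 peaks per Mb, against 3.86, 1.55 and 0.934 over all gaps. Such peaks occurred in Pax6-HIGH alone in 9 of the 26 gaps (34.6%, against 19.3% of all gaps). In Pax6-ON alone they occurred in 2 (7.69%, against 7.82%) and in Pax6-OFF alone in 1 (3.85%, against 2.93%). The gaps on both sides of Sox2, a factor of lens and neural development, held 3 and 4 peaks in Pax6-HIGH and none in the other lines. Between Xkr9 and Eya1 there were 13 peaks in Pax6-HIGH and none elsewhere. Beside Maf, a factor of lens fibre cells, the gap towards Dynlrb2 held 3 peaks in Pax6-ON, 1 in Pax6-HIGH and 0 in Pax6-OFF. The gap from Wwox to Maf held 6, 9 and 2 peaks in the same order.

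Of the 28 gaps of the kidney list, 2 had single-copy peaks in Pax6-OFF alone (7.14%, against 2.93% of all gaps). In Pax6-HIGH alone 6 had them (21.4%, against 19.3%), and in Pax6-ON alone 2 (7.14%, against 7.82%). Between Osr1, an early factor of the kidney lineage, and Nt5c1b there were 3 peaks in Pax6-OFF with 51, 59 and 31 fragments, and the 3 between the Iroquois genes Irx2 and Irx4, which are on this list too, had 31, 33 and 35. Between Emx2, a homeobox gene of the urogenital tract, and Rab11fip2 there were 2 peaks, both in Pax6-ON, with 78 and 59 fragments.

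Of the mesenchymal and AP-1 linked list, the gap between Jun, an AP-1 subunit gene, and Fggy held 7 peaks in Pax6-ON, 2 in Pax6-HIGH cells and 1 in Pax6-OFF cells. Pileups in Pax6-ON were 61, 143, 74, 47, 98, 50 and 105 fragments along the gap. The peak of 143 fragments is the site called in all 3 lines whose sequence is given above, and the other 6 were private to Pax6-ON. Between the nuclear receptor gene Nr2f1 and Arrdc3 there were 4 peaks in Pax6-ON with 84, 96, 224 and 241 fragments, each with an AP-1 match, 3 in Pax6-HIGH and 1 in Pax6-OFF. The Pax6-OFF peak, of 46 fragments, overlapped the Pax6-ON peak of 224 fragments at chr13:78948859-78949371, 610.0 kb from the nearest coding start site. The peak of 241 fragments, shown above, was called in Pax6-ON alone. Pax6-HIGH led in other gaps of this list, with 8 peaks against 1 in Pax6-ON and 0 in Pax6-OFF between Lyplal1 and Tgfb2. Of the 30 gaps, 3 had single-copy peaks in Pax6-HIGH alone (10%, against 19.3% of all gaps). In Pax6-ON alone 1 had them (3.33%, against 7.82%), and in Pax6-OFF alone 0 (against 2.93%).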

How the data were processed

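ATAC-seq peaks of 3 mouse cell lines were analysed from 1 deposited peak table per line. Per the labels and the study's methods, the authors trimmed reads with Trim Galore 0.4.1, aligned them to mm9 with Bowtie2 2.2.6, handled alignments with SAMtools 1.6 and bedtools, and pooled both replicates for MACS2 2.1.1, which kept peaks with q-values up to 0.05, with whole fragments, no control library and duplicates kept. The deposited pileup is a signal, the fragments at the summit with no scaling for depth. The fold enrichment in the deposited tables is the ratio of this pileup to the local background, and the authors' p-values and q-values are deposited as −log10 values. Whole fragments without a shift for the Tn5 cut can move a summit by some bases. Pileups of different lines were not compared as measures of openness. A filter on reads with several matches is not given in the sources used here.

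The distance from each summit to the nearest of 41529 protein-coding start sites of GENCODE M1 was computed on NCBIM37, the assembly of mm9, with Python 3.11.15, pandas 2.3.3, NumPy 2.4.6, SciPy 1.17.1 and pysam 0.24.0. Peaks were classed as promoter (within 1 kb), proximal (to 10 kb), distal (to 100 kb) or far distal, and overlaps needed 1 bp. The copy number of a window was the median genome count of its 31-mers. Shares have 95% Wilson and medians 95% order-statistic intervals. They cover counting error only, and peaks are not replicates, so no p-value was computed. The scripts were tested on simulated data.

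Named gaps were, per line, the 8 with most far distal peaks, the 8 with most sites called in all 3 lines and those bounded by genes of the tissue lists. Named peaks were the 3 farthest and the 3 of highest pileup per line, of which some are printed. The sequence rule left out chromosome 18 and windows with mitochondrial 31-mers. It would also have left out soft-masked summits, but the genome used is not masked. The members and lists were chosen with earlier results of these data known. The copy number split, the rankings of single-copy peaks, the private and farthest sequences and the AP-1 comparisons with and without other peaks were added after seeing the data.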

Additional observations from a re-analysis of the deposited data

How the results depend on the processing

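Both replicates of each line were pooled in 1 call, so no replicate could be left out. No paired analysis was possible because the peak tables hold no value of a single replicate. The limits of the data are the single call per line, the detergent that differs with the line, the missing statement on reads with several matches, and the q-value cut, which decides how many weak peaks are counted. The values carry no sign that could reverse, but some orders between them turned. The median pileup of Pax6-HIGH lay below that of Pax6-ON, 46 against 61, and with equal numbers of peaks above it. Without multi-copy windows, the median length of Pax6-OFF went from above to below that of Pax6-ON, and its far distal pileup from 44 against 45 in distal peaks to 46 against 44. Distances taken from the nearest base of a peak, and leaving out peaks with mitochondrial 31-mers or near assembly gaps, moved none of the 15 values each. The values below left their interval or, for gap counts, changed by more than 1.5 times, and the cause was not tested.

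With 8768 peaks per line, the far distal share was 11.6% in Pax6-HIGH and 9.31% in Pax6-OFF, the median pileup 91 and 56 fragments, the median length 704 and 497 bp and the gaps with 3 or more peaks 126 and 50, and the overlap with another line was 18.3% in Pax6-HIGH and 27.3% in Pax6-ON. With q below 0.001, Pax6-HIGH had a share of 16.9%, a pileup of 48 and a length of 509 bp, and Pax6-OFF a pileup of 46 and a length of 409 bp. When start sites of transcripts of every biotype counted, the shares were 9.75%, 9.42% and 6.15% in order of Pax6-HIGH, Pax6-ON and Pax6-OFF, gaps with 3 or more peaks numbered 282, 67 and 61, the overlap of Pax6-ON was 35.1%, the pileup of Pax6-OFF was 42 and the AP-1 share of single-copy peaks was 72.4% in Pax6-ON and 55.2% in Pax6-OFF. With an overlap of at least 50% of both peaks, sharing was 13.3%, 30.8% and 42.6%.

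Alternatives added after seeing the data also moved values. Without multi-copy windows in any line, the share was 15.8% in Pax6-HIGH and 7.69% in Pax6-OFF, the pileup 48 and 46, the length 468, 354.5 and 334 bp in Pax6-HIGH, Pax6-ON and Pax6-OFF, the overlap 7.04%, 28.9% and 43.7%, and the gaps with 3 or more peaks in Pax6-OFF 62. The AP-1 share over all copy numbers was 17.6%, 56.7% and 26.0%, and without the gaps of the immunoglobulin heavy chain locus it was 54.2% in Pax6-OFF.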
